A study of Mus musculus with 6 samples.

Results

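Olfactory receptor genes of 2 clusters, 10 loci in all, were followed in thymic dendritic cells of the mouse. The chromosome 17 cluster held Olfr109, Olfr111, Olfr112, Olfr113, Olfr114, Olfr115 and Olfr116, and the chromosome 16 cluster held Olfr164, Olfr165 and Olfr167. They were 10 of the 23420 gene symbols in the count tables, beside 1112 other symbols named Olfr. They had been selected on their counts in PBS pDCs and PBS Sirpa+ DCs, where the clusters lay at opposite ends, so that contrast is described here without a test. Counts of the chromosome 17 cluster came almost wholly from Sirpa+ DCs, and counts of the chromosome 16 cluster came almost wholly from pDCs.

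The study sorted dendritic cells from the thymus of wild type mice to characterise cells that had migrated there from a tumour. Plasmacytoid dendritic cells (pDCs, CD11c low B220+) carrying yellow-green microspheres, here YG+ pDCs, came from mice bearing MC38, a colon carcinoma line. Tumours had grown for 12 days when the microspheres were injected into them, and the cells were taken 2 days later. The comparison groups were pDCs and conventional Sirpa+ DCs (CD11c high Sirpa+) from mice given PBS. Each group had 2 libraries, and all 6 shared the genotype, the tissue, a label of 2 weeks and 1 batch. No group combines microspheres or a tumour with Sirpa+ DCs, and the YG+ and PBS pDCs differ in tumour, microspheres and the sort for microspheres together, which cannot be told apart. Whether the paired libraries stem from different animals is not stated, and the p-values reflect only how these libraries vary, which may be technical.

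Olfactory receptors are G protein-coupled receptors and form the largest gene family of the mouse. Each olfactory neuron transcribes 1 allele of 1 receptor gene and signals through the G protein subunit Gnal, the adenylyl cyclase Adcy3 and a cyclic nucleotide-gated channel. The genes lie in tandem clusters that grew by duplication, and most have their whole coding sequence in 1 exon. The chromosome 17 cluster adjoins the H2-M genes of the major histocompatibility complex, and the chromosome 16 cluster lies near the immunoglobulin lambda light chain genes.

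Gene counts were few in these libraries, running from 177844 to 713966 per library, which was 0.842% to 3.36% of the uniquely placed records. The antisense gene Tsix outnumbered Xist by 2.70 to 20.5 times in every library. No source used here gives the strand setting, so transcripts of a member's own strand and of the opposite strand cannot be told apart in its count. In GENCODE M21, no exon of any of the 10 loci shared a base with an exon of the opposite strand. Summed markers matched the sorts, with pDC markers at 2913 to 4551 CPM (counts per 1000000 gene counts after TMM scaling) in the 4 pDC libraries and 583 to 651 CPM in Sirpa+ DCs.

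On GRCm38, the chromosome 17 members spanned chr17:37458916-37627199, a stretch of 168284 bp. Olfr109 and Olfr111 lay on the plus strand and the other 5 on the minus strand. The chromosome 16 members spanned chr16:19284104-19522266, or 238163 bp, all on the minus strand. Each member had 1 coding block, of 936 to 963 bp, preceded by noncoding first exons. Olfr115 and Olfr116 shared 304 bp of exon on the same strand, so their counts may be split or lost between them.

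Within the chromosome 17 cluster, Olfr112 to Olfr116 formed a group of close copies, with 88.4% to 91.2% identical coding bases between pairs. The longest run of identical bases, 139, was between Olfr112 and Olfr113. Olfr164 and Olfr165 were 89.9% identical, with a longest run of 47 bases. Between the clusters, coding identity was 59.96% to 68.6%. Reads from close copies can be placed on the wrong copy or set aside as not unique, so single counts within these groups are uncertain, while coding sequences of different clusters had at most 18 identical bases in a row.

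Windows around the RefSeq start are shown for 5 members that have close copies within their cluster. Each window shown holds 250 bases before and 50 bases after the RefSeq start on the minus strand of GRCm38.p6. RefSeq entries matched 7 of the 10 members, and Olfr112, Olfr116 and Olfr167 had none. For Olfr113, Olfr114, Olfr164 and Olfr165 the RefSeq start is the first coding base, and GENCODE places the first exon farther upstream. Their windows thus hold the letters before the coding sequence and its first 50 bases, and may not hold the promoter. The positions are chr17:37575372-37575671, chr17:37590302-37590601, chr17:37610730-37611029, chr16:19286692-19286991 and chr16:19407968-19408267. Capitals mark matches, on either strand, to GAGGAA (the core bound by PU.1, a factor of myeloid cells), CANNTG (the E-box, bound by E proteins such as E2-2 of pDCs), the palindromic Ebf motif of olfactory neurons and B cells and ATTTGCAT (the octamer, bound by Oct factors). No printed match shares a base with another.
Olfr113: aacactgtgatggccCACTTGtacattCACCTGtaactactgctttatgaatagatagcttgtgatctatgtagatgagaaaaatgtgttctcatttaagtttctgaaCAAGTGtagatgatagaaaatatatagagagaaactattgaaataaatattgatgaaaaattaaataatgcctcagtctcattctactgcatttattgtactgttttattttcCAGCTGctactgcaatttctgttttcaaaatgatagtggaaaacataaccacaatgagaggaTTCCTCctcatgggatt
Olfr114: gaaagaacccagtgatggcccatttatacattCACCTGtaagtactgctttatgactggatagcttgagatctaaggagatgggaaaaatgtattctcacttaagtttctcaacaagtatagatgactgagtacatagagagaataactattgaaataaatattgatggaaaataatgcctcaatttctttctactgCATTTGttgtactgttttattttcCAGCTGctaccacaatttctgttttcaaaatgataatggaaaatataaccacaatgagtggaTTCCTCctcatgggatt
Olfr115: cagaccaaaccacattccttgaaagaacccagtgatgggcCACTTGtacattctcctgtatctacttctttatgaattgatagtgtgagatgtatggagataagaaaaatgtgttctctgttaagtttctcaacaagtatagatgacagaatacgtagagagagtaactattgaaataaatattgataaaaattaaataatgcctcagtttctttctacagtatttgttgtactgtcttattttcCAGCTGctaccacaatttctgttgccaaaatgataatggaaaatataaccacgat
Olfr164: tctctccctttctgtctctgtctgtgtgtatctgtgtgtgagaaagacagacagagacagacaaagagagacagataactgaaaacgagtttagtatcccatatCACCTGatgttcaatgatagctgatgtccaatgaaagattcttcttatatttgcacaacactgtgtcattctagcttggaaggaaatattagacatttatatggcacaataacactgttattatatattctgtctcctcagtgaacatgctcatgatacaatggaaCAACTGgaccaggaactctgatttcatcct
Olfr165: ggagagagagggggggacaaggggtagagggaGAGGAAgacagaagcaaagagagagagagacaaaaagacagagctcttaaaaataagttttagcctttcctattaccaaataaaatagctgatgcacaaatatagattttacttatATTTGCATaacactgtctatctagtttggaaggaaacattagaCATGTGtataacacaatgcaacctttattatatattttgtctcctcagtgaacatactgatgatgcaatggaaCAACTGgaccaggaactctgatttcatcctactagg

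The windows of Olfr113 and Olfr114 were 88.8% identical, those of Olfr114 and Olfr115 also 88.8%, and those of Olfr164 and Olfr165 75.2%. The windows of Olfr109 and Olfr111, not shown, were 58.3% to 67.2% identical to each other and to the rest of their cluster. Between the clusters, windows were 57.0% to 63.7% identical. GAGGAA was found in 4 of the 7 member windows, against 28.3% of all 32851 RefSeq windows. In Olfr113 and Olfr114 the match lay at base 34 after the start, within the coding sequence. CANNTG was found in 7 of 7, against 72.3% of all windows. In Olfr164 and Olfr165 a CANNTG match also lay within the coding sequence, at base 21 and base 15. The Ebf motif was found in 0 of 7, against 0.904%, and ATTTGCAT in 1 of 7, against 1.74%, the match lying 102 bases before the start of Olfr165. GAGGAA and CANNTG occurred in members of both clusters.

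Among the chromosome 17 loci, Olfr112 had the highest counts. Its counts were 324 and 325 in the Sirpa+ DC libraries, 14 and 10 in YG+ pDCs, and 0 and 0 in PBS pDCs. In CPM it stood at 1312 and 624 in Sirpa+ DCs (968 ± 486, SD, n = 2) and at 18.9 and 17.3 in YG+ pDCs (18.1 ± 1.17, n = 2). The 3 groups did not overlap, with Sirpa+ DCs highest and YG+ pDCs between the others. The level in Sirpa+ DCs was at least 199-fold that of PBS pDCs, whose floor of 3 counts over both libraries was 4.87 CPM.

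Its close copies followed the same order in Sirpa+ DCs and PBS pDCs. Olfr113 had 77 and 70 counts in Sirpa+ DCs (223 ± 125 CPM, n = 2), 3 and 2 in YG+ pDCs, and 0 in both PBS pDC libraries. Olfr114 had 74 and 82 counts in Sirpa+ DCs (229 ± 100.4 CPM, n = 2), 1 and 0 in YG+ pDCs, and 0 in both PBS pDC libraries. Both were present in each Sirpa+ DC library and at no more than 3 counts elsewhere. Olfr115 had 27 and 31 counts in Sirpa+ DCs (84.4 ± 35.2 CPM, n = 2), 0 and 1 in YG+ pDCs, and 0 in both PBS pDC libraries. Olfr116 had 18 and 14 counts in Sirpa+ DCs (49.9 ± 32.5 CPM, n = 2) and 0 in the other 4 libraries. The level in Sirpa+ DCs was at least 45.8-fold that in PBS pDCs for Olfr113, 46.9-fold for Olfr114, 17.3-fold for Olfr115 and 10.2-fold for Olfr116.

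The plus-strand genes at the other end of the cluster are more distant in sequence. Olfr109 had 37 and 58 counts in Sirpa+ DCs (150 and 111 CPM, 131 ± 27.1, n = 2), 11 and 4 in YG+ pDCs (14.9 and 6.91 CPM), and 0 in both PBS pDC libraries. Olfr111 had 8 and 22 counts in Sirpa+ DCs (32.4 and 42.3 CPM, 37.3 ± 6.99, n = 2), 3 and 1 in YG+ pDCs, and 0 in both PBS pDC libraries. Sirpa+ DCs were again highest and did not overlap the pDC libraries. The level was at least 26.8-fold that in PBS pDCs for Olfr109 and 7.66-fold for Olfr111.

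**Figure D1:**
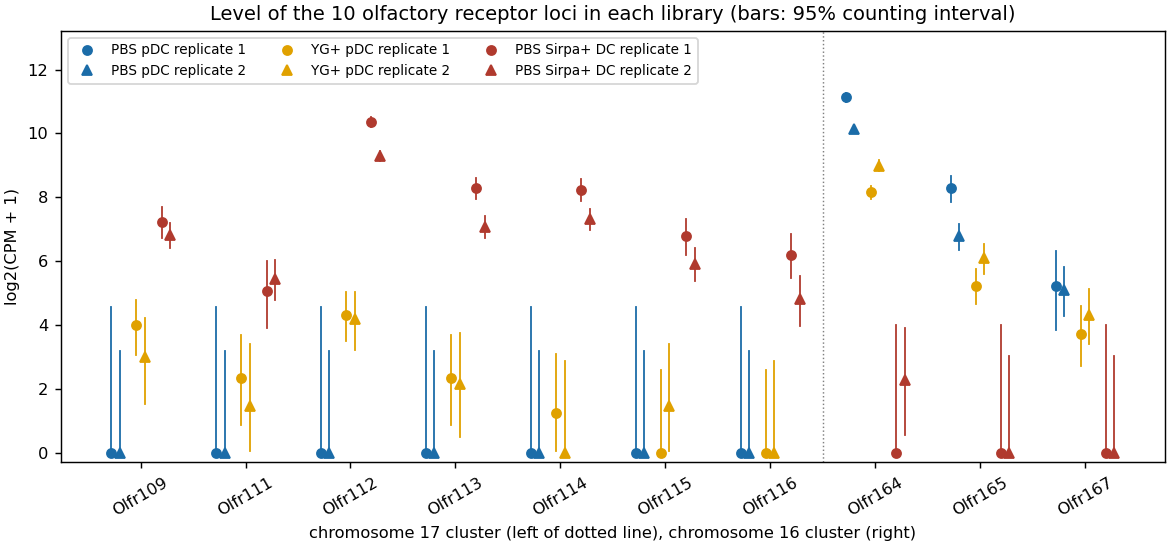
Level of each locus in each library, as log2(CPM + 1), with blue for PBS pDCs, yellow for YG+ pDCs and red for PBS Sirpa+ DCs, circles for replicate 1, triangles for replicate 2, and bars for the 95% Poisson counting interval. The 7 chromosome 17 loci are highest in the red libraries and at 0 in both blue libraries, and the 3 chromosome 16 loci are highest in the blue libraries and at 0 or near it in the red ones.

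Among the chromosome 16 loci, Olfr164 led. It had 368 and 512 counts in PBS pDCs, 210 and 294 in YG+ pDCs, and 0 and 2 in Sirpa+ DCs. In CPM it stood at 2239 and 1135 in PBS pDCs (1687 ± 781, n = 2), at 284 and 508 in YG+ pDCs (396 ± 158, n = 2), and at 0 and 3.84 in Sirpa+ DCs. All 4 pDC libraries lay above both Sirpa+ DC libraries, and the PBS and YG+ pDCs did not overlap in CPM. The pooled level in PBS pDCs was 549 times that in Sirpa+ DCs, with a 95% counting interval of 151 to 4537.

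Olfr165, its close copy, had 51 and 49 counts in PBS pDCs (310.3 and 109 CPM, 209 ± 143, n = 2), 27 and 39 in YG+ pDCs (36.5 and 67.4 CPM, 52.0 ± 21.8, n = 2), and 0 in both Sirpa+ DC libraries. Olfr167 had 6 and 15 counts in PBS pDCs (36.5 and 33.2 CPM, 34.9 ± 2.31, n = 2), 9 and 11 in YG+ pDCs (12.2 and 19.0 CPM, 15.6 ± 4.83, n = 2), and 0 in both Sirpa+ DC libraries. In both genes every pDC library had counts and neither Sirpa+ DC library had any. The level in PBS pDCs was at least 53.6-fold that in Sirpa+ DCs for Olfr165 and 8.92-fold for Olfr167. All 10 members lay apart between PBS pDCs and Sirpa+ DCs in CPM, as did 47.0% of the 8141 genes tested. In that contrast 11.4% of them were called (4.54% higher and 6.89% lower in PBS pDCs) at an adjusted p of 0.05 (edgeR quasi-likelihood test, Benjamini-Hochberg), from which nothing is read since the contrast chose the members.

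Per kilobase of coding sequence, the order in Sirpa+ DCs was Olfr112 at 1008 ± 506 CPM per kb, Olfr114 at 244 ± 107, Olfr113 at 238 ± 134, Olfr109 at 139 ± 28.8, Olfr115 at 90.2 ± 37.6, Olfr116 at 51.8 ± 33.8 and Olfr111 at 39.3 ± 7.35 (n = 2 each). The steps from Olfr112 to Olfr114, from Olfr109 to Olfr115 and from Olfr115 to Olfr116 were larger than the SD of both genes, and the other 3 were not. Per kilobase of exon, Olfr115 moved ahead of Olfr109, and Olfr111 ahead of Olfr116, while the first 3 kept their order. In PBS pDCs, Olfr164 stood at 1785 ± 826 CPM per kb of coding sequence, Olfr165 at 223 ± 152 and Olfr167 at 37.3 ± 2.46 (n = 2). The order was the same in YG+ pDCs, at 419 ± 168, 55.3 ± 23.3 and 16.7 ± 5.16 CPM per kb (n = 2).

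Shares within each cluster do not depend on the library size. Of the chromosome 17 cluster's counts, Olfr112 held 57.3% (95% Wilson interval 53.2% to 61.4%) and 54.0% (49.99% to 57.9%) in the Sirpa+ DC libraries. It held 43.8% (28.2% to 60.7%) and 55.6% (33.7% to 75.4%) in the YG+ pDC libraries, which had 32 and 18 cluster counts in all. Those intervals overlapped. Olfr109 held 6.55% (4.79% to 8.90%) and 9.63% (7.53% to 12.3%) in Sirpa+ DCs, against 34.4% (20.4% to 51.7%) and 22.2% (9.001% to 45.2%) in YG+ pDCs. Its share was higher in both YG+ pDC libraries than in both Sirpa+ DC libraries, but the interval of YG+ pDC replicate 2 overlapped that of Sirpa+ DC replicate 2. In the chromosome 16 cluster, Olfr164 held 85.4% to 88.9% in the 4 pDC libraries, Olfr165 8.51% to 12.0% and Olfr167 1.41% to 3.66%. The shares of YG+ and PBS pDCs lay close together there. Intervals cover counting error only, since reads are not independent molecules.

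**Figure D2:**
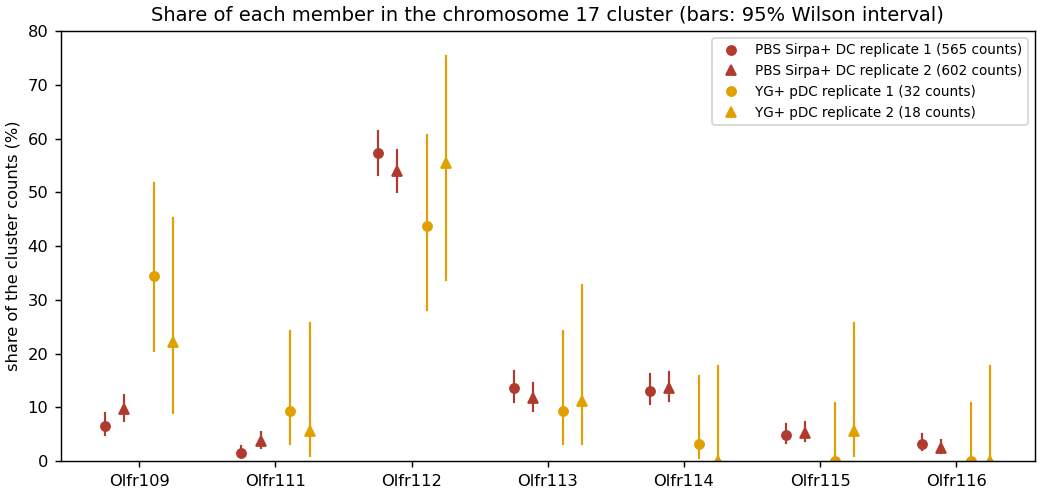
Share of each chromosome 17 locus in the summed counts of the cluster, in percent, with red for PBS Sirpa+ DCs, yellow for YG+ pDCs, circles for replicate 1, triangles for replicate 2, and bars for the 95% Wilson interval. Olfr112 holds the highest share in all 4 libraries, from 43.8% to 57.3%, and Olfr109 holds 22.2% to 34.4% in YG+ pDCs against 6.55% to 9.63% in Sirpa+ DCs.

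YG+ pDCs were not used to choose the members, and were compared with each PBS group in a fit over all 8141 genes that passed the filter. All 10 members passed it, but the 7 chromosome 17 loci did so through their counts in Sirpa+ DCs: with the 4 pDC libraries alone only Olfr164, Olfr165 and Olfr167 passed. The PBS pDC and Sirpa+ DC libraries in these comparisons are the ones that chose the members, so neither comparison is independent of the choice. Counts of members called, and the p-values and calls of single members, are given as descriptions only.

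Against PBS pDCs, YG+ pDCs had lower levels of the chromosome 16 loci and more counts from the chromosome 17 cluster, and none of these differences passed the test. The chromosome 16 sum was 2586 and 1277 CPM in PBS pDCs (1931 ± 926, n = 2) and 333 and 595 CPM in YG+ pDCs (464 ± 185, n = 2). The edgeR log2 difference, YG+ minus PBS, was -2.10 ± 0.53 (SE) for Olfr164 and -1.97 ± 0.58 for Olfr165, each with an adjusted p of 0.315, and -1.16 ± 0.71 for Olfr167, with an adjusted p of 0.568. In each of the 3 genes both YG+ pDC libraries lay below both PBS pDC libraries in CPM. Per 1000000 uniquely placed records Olfr167 overlapped, at 0.284 and 0.770 in PBS pDCs and 0.423 and 0.505 in YG+ pDCs. Of all 8141 genes tested, 45.9% lay apart between YG+ and PBS pDCs in CPM and 62.8% per uniquely placed record. Without PBS pDC replicate 2 the difference was -2.48 for Olfr164 and -2.57 for Olfr165 (edgeR adjusted p 0.00601 and 0.00632), and without PBS pDC replicate 1 it was -1.54 and -1.10 (0.299 and 0.647). With uniquely placed records as library size, a scaling chosen after seeing the data, it was -0.90 and -0.69 (edgeR adjusted p 0.579 and 0.636).

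The chromosome 17 cluster had 32 and 18 counts in the YG+ pDC libraries (43.3 and 31.1 CPM, 37.2 ± 8.61, n = 2) and 0 in both PBS pDC libraries. The summed level in YG+ pDCs was thus at least 7.63-fold higher, and the level of Olfr112 at least 3.72-fold and of Olfr109 at least 2.24-fold. The mean levels of Olfr111, Olfr113, Olfr114, Olfr115 and Olfr116 in YG+ pDCs lay below the PBS pDC floor of 4.87 CPM, so a difference was not detectable at this depth. In PBS pDC replicate 1, the shallowest library, 3 counts were 18.3 CPM, above every YG+ pDC level of the cluster's genes but that of Olfr112 in replicate 1. By edgeR, 0 of 10 members were called, with adjusted p of 0.315 to 1, and 0% of all 8141 genes were. At an unadjusted p of 0.05, 4 members and 929 of all genes passed. DESeq2 called 45 genes, Olfr164 among them at an adjusted p of 0.0152, and limma-voom called 0. Without a filter on low counts, the edgeR adjusted p was 0.0330 for Olfr112, 0.0203 for Olfr164 and 0.0437 for Olfr165.

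Markers of other cells moved with this comparison. The 6 Sirpa+ conventional DC markers summed to 584 and 765 CPM in PBS pDCs, 1379 and 1224 CPM in YG+ pDCs and 3806 and 3513 CPM in Sirpa+ DCs. Much of that order came from Fscn1, at 164 and 124, 726 and 553, and 2704 and 2006 CPM. Sirpa, Itgax, Itgam and Clec4a2 overlapped between PBS and YG+ pDCs, while Cd209a was higher in both YG+ pDC libraries. The 5 monocyte and macrophage markers in the files summed to 189 and 42.1 CPM in PBS pDCs, 1063 and 406 CPM in YG+ pDCs and 2712 and 4556 CPM in Sirpa+ DCs. Both sums were ordered as the chromosome 17 cluster was, and their part in its counts was not tested. The 6 B cell markers summed to 438 to 559 CPM in the 4 pDC libraries and 15.4 to 20.2 CPM in Sirpa+ DCs, with Ms4a1 and Pax5 among those at 0 there. The 6 T cell markers summed to 452 to 570 CPM in the pDC libraries and 126 to 144 CPM in Sirpa+ DCs, with Cd3g at 0 in all 6 libraries and Cd3e in all but YG+ pDC replicate 2. Both of these sums were high where the chromosome 16 cluster was high, and their part was not tested. The 8 thymic epithelial markers summed to 6.08 to 22.2 CPM in PBS pDCs, 46.7 to 52.8 CPM in YG+ pDCs and 130 to 136 CPM in Sirpa+ DCs, with Foxn1 at 0 in all 6. Most of the Sirpa+ DC sum was Epcam, at 113 and 98.0 CPM there, 23.0 and 17.3 CPM in YG+ pDCs and 6.08 and 11.1 CPM in PBS pDCs. Aire did not share that order, at 0 and 9.61 CPM in Sirpa+ DCs, 23.0 and 19.0 CPM in YG+ pDCs and 0 and 4.43 CPM in PBS pDCs. In bulk samples, fewer cells of a type and less RNA per cell cannot be told apart.

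Against Sirpa+ DCs, YG+ pDCs had lower levels of all 7 chromosome 17 loci and higher levels of Olfr164 and Olfr165. The edgeR test called 9 of the 10 members, 7 lower and 2 higher, and 7.16% of all 8141 genes (4.09% lower and 3.07% higher). Nothing is read from that count, since the Sirpa+ DC values chose the members. The log2 difference, YG+ minus Sirpa+, was -5.72 ± 0.59 (SE) for Olfr112 at an adjusted p of 0.00137, -5.76 ± 0.67 for Olfr113 at 0.00188, -3.51 ± 0.56 for Olfr109 at 0.00686 and -3.55 ± 0.87 for Olfr111 at 0.0360. The groups did not overlap in CPM in any of the 10, nor in 62.1% of all genes tested.

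For genes with few or no counts in one group the size of the fall or rise is given from pooled counts. The level in Sirpa+ DCs was 268 times that in YG+ pDCs for Olfr114 (95% counting interval 47.4 to 10647, edgeR adjusted p 0.00137) and 99.6 times for Olfr115 (17.2 to 4001, adjusted p 0.00491). It was at least 21.9-fold higher for Olfr116 (edgeR adjusted p 0.0155), a call that DESeq2 did not make (adjusted p 0.448). In the other direction, the pooled level of Olfr164 in YG+ pDCs was 147 times that in Sirpa+ DCs (40.4 to 1215, edgeR adjusted p 0.00137), and Olfr165 was at least 13.3-fold higher (adjusted p 0.0131). Olfr167, at least 3.99-fold higher, missed the threshold with an edgeR adjusted p of 0.0533.

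Sirpa+ DC values that chose the members enter all refits of this comparison, so a call that stays is a description and no support. Over the alternative fits listed below, the log2 difference was -6.16 to -4.64 for Olfr112 and -6.27 to -4.71 for Olfr113. It was -9.49 to -6.87 for Olfr114 and 6.56 to 10.4 for Olfr164. Without Sirpa+ DC replicate 1 the edgeR adjusted p became 0.0747 for Olfr109, 0.217 for Olfr111, 0.0912 for Olfr115 and 0.0984 for Olfr165, and Olfr116 no longer passed the filter. Without Sirpa+ DC replicate 2 it became 0.0502 for Olfr115, 0.101 for Olfr116 and 0.138 for Olfr165, and Olfr111 no longer passed the filter. Without YG+ pDC replicate 1 it became 0.281 for Olfr111 and 0.0592 for Olfr116, and without replicate 2 it became 0.0505 for Olfr109, 0.480 for Olfr111 and 0.0610 for Olfr116.

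The counts of most members did not follow the gene totals of their libraries. Between the Sirpa+ DC libraries the gene total of replicate 2 was 2.01 times that of replicate 1, while the uniquely placed records were 0.999 times. The chromosome 17 cluster stood at 1.07 times (95% interval 0.948 to 1.197), near the second ratio, and Olfr112 at 1.00 times. Over genes with at least 20 counts the median was 2.16, and 10.6% of them stood below the chromosome 17 cluster and 9.30% below Olfr112. Olfr109 at 1.57 times and Olfr111 at 2.75 times (1.18 to 7.14) lay nearer to the gene totals. Tsix stood at 1.04 times and Xist at 2.44 times.

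In the PBS pDC libraries, gene totals stood at 2.33 times and uniquely placed records at 0.922 times, with a median over genes of 3. Olfr164 stood at 1.39 times (1.21 to 1.595), below the gene totals and above the uniquely placed records. Olfr165 stood at 0.961 times (0.636 to 1.45), below the gene totals and near the uniquely placed records. Among genes with at least 20 counts, 20.4% stood below Olfr164 and 10.5% below Olfr165. Olfr167 at 2.50 times (0.917 to 7.86) could not be told from the gene totals or the uniquely placed records. Tsix stood at 0.686 times and Xist at 3.90 times. In YG+ pDCs gene totals stood at 0.792 times and uniquely placed records at 1.02 times. There the chromosome 16 cluster stood at 1.40 times (1.18 to 1.65), above both.

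**Figure D3:**
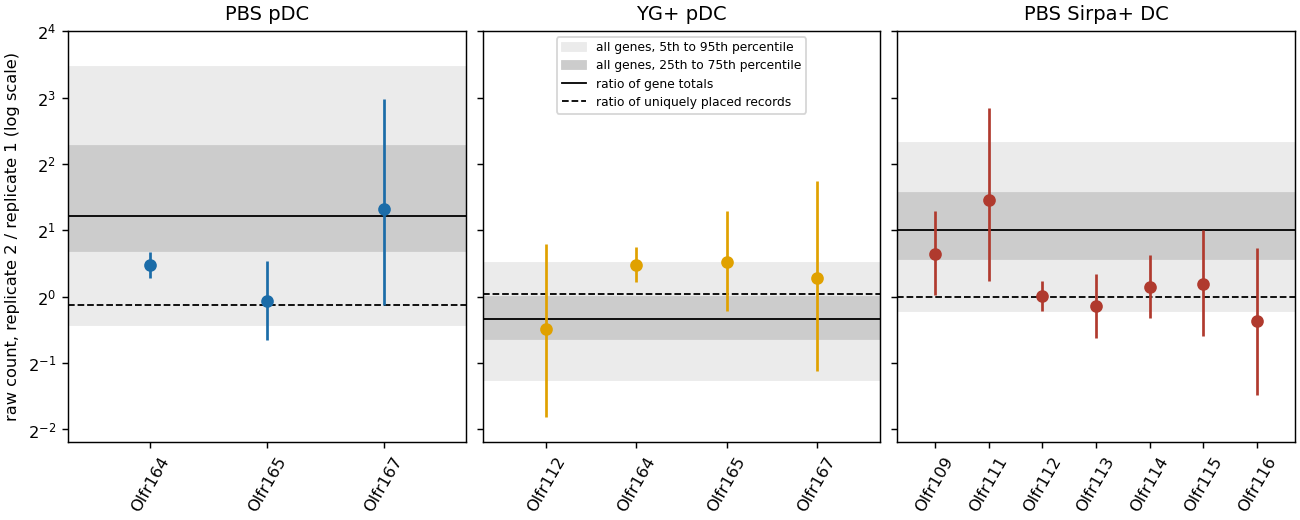
Raw count of replicate 2 over replicate 1, on a log scale, for each member with enough counts in PBS pDCs, YG+ pDCs and PBS Sirpa+ DCs, with bars for the 95% interval, grey bands for the spread over all genes, a solid line for the ratio of gene totals and a dashed line for the ratio of uniquely placed records. In Sirpa+ DCs Olfr112 to Olfr116 lie at the dashed line, with Olfr112 at 1.00 against 2.01 for the gene totals, and in PBS pDCs Olfr165 lies there too.

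Levels between libraries therefore depend on the denominator. Per 1000000 uniquely placed records, a scaling chosen after seeing the data, the chromosome 17 cluster stood at 24.5 and 26.2 in Sirpa+ DCs (25.3 ± 1.15, n = 2), 1.505 and 0.826 in YG+ pDCs and 0 in both PBS pDC libraries. The chromosome 16 cluster stood at 20.1 and 29.6 in PBS pDCs (24.8 ± 6.69, n = 2), 11.6 and 15.8 in YG+ pDCs (13.7 ± 2.99, n = 2), and 0 and 0.0869 in Sirpa+ DCs. The order of the groups in both clusters was the same under either denominator. The ratio of PBS to YG+ pDCs for the chromosome 16 cluster was 4.17 per gene count and 1.82 per uniquely placed record. With uniquely placed records as library size, edgeR called 0 of 8141 genes between YG+ pDCs and Sirpa+ DCs, and the adjusted p of the 9 called members became 0.0536 to 0.363. That scaling moved the median log2 difference of all genes by 0.88, and by 0.95 between YG+ and PBS pDCs.

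**Figure D4:**
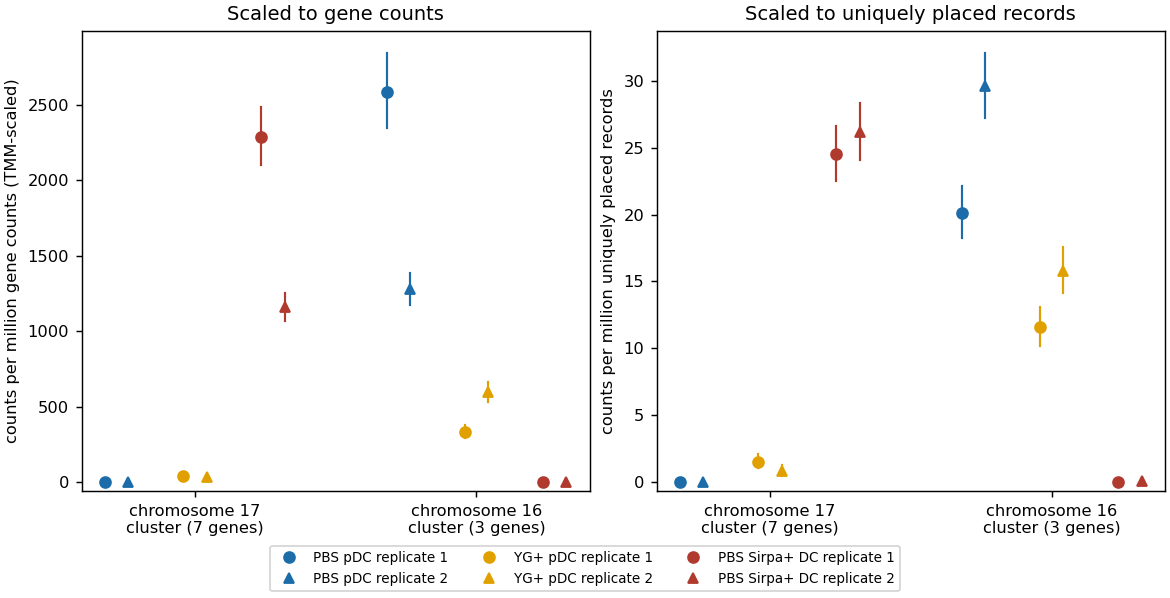
Summed level of each cluster in each library, per 1000000 gene counts (left panel, TMM-scaled) and per 1000000 uniquely placed records (right panel), with blue for PBS pDCs, yellow for YG+ pDCs, red for PBS Sirpa+ DCs, circles for replicate 1, triangles for replicate 2 and bars for the 95% counting interval. The Sirpa+ DC libraries stand at 2287 and 1157 on the left and at 24.5 and 26.2 on the right for the chromosome 17 cluster, and the gap between PBS and YG+ pDCs in the chromosome 16 cluster is smaller on the right.

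Around the clusters, 55 genes within 500 kb of either had a count row, 41 on chromosome 17 and 14 on chromosome 16. Of these, 28 had any count and 11 passed the filter. In PBS pDCs against Sirpa+ DCs, 2 of the 11 were called by edgeR, H2-M2 and Olfr108, both lower, where 11.4% of all genes were called. In YG+ pDCs against Sirpa+ DCs the called genes were again H2-M2 and Olfr108, both lower, where 7.16% of all genes were called, and in YG+ against PBS pDCs 0 of 11 were called, with a background of 0%.

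H2-M2, an MHC class I-like gene, lies inside the chromosome 17 cluster, between Olfr109 and Olfr111. It had 2 and 1 counts in PBS pDCs, 21 and 16 in YG+ pDCs, and 73 and 198 in Sirpa+ DCs, or 7.19 ± 7.04, 28.0 ± 0.54 and 338 ± 60.05 CPM (n = 2 each). The groups did not overlap and stood in the order of the members around it. The log2 difference was -5.96 ± 0.67 for PBS pDCs minus Sirpa+ DCs (edgeR adjusted p 0.00079) and -3.59 ± 0.48 for YG+ pDCs minus Sirpa+ DCs (0.00266), and 2.38 ± 0.76 for YG+ minus PBS pDCs, which missed the threshold (0.315). Unlike Olfr112, its Sirpa+ DC counts stood at 2.71 times (2.06 to 3.598) in replicate 2 over replicate 1, above the 2.01 times of the gene totals.

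Olfr108, the next gene before the cluster, had 1 and 3 counts in PBS pDCs, 5 and 2 in YG+ pDCs, and 27 and 14 in Sirpa+ DCs. Its log2 difference from Sirpa+ DCs was -3.25 ± 0.93 in PBS pDCs (edgeR adjusted p 0.0452) and -3.55 ± 0.82 in YG+ pDCs (0.0245). Olfr107, next beyond it, had 12 and 6 counts in Sirpa+ DCs and at most 1 in the pDC libraries, and Olfr110, inside the cluster, had 1 and 5 in Sirpa+ DCs and 0 in the pDC libraries. Both were too low to pass the filter. Of the Olfr genes on the far side of Olfr116, Olfr117 to Olfr120 had no count in any library.

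Olfr98 and Olfr99, farther off on the same chromosome, had counts in all 3 groups. Olfr99 had 21 and 24 counts in PBS pDCs, 15 and 13 in YG+ pDCs and 21 and 24 in Sirpa+ DCs, and Olfr98 had 19 and 19, 7 and 8, and 14 and 18. PBS pDCs and Sirpa+ DCs overlapped in both genes. The log2 difference of YG+ minus PBS pDCs was -1.99 ± 0.58 for Olfr99 and -2.65 ± 0.66 for Olfr98, and neither passed the test (edgeR adjusted p 0.315 each). H2-M3, which lies between them and presents formylated peptides, stood at 76.9 ± 11.7, 60.9 ± 11.6 and 70.9 ± 2.97 CPM (n = 2) in PBS pDCs, YG+ pDCs and Sirpa+ DCs. Its log2 differences in the 3 comparisons were all within their SE, with edgeR adjusted p from 0.784 to 0.925. Gabbr1, a GABA receptor subunit, stood at 22.4 ± 5.90, 20.3 ± 1.86 and 35.7 ± 12.5 CPM (n = 2) in the same order of groups and was not called.

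Near the chromosome 16 cluster, 0 of the 5 tested neighbours were called in any of the 3 comparisons. Klhl6, a gene of B cell receptor signalling, stood at 87.2 ± 45.9 CPM in PBS pDCs, 90.3 ± 9.13 CPM in YG+ pDCs and 24.4 ± 11.6 CPM in Sirpa+ DCs (n = 2 each). Its log2 difference of 1.82 ± 0.55 between PBS pDCs and Sirpa+ DCs missed the threshold (edgeR adjusted p 0.0545). Hira, a histone chaperone, stood at 47.1 ± 14.9, 40.1 ± 10.3 and 52.2 ± 5.05 CPM (n = 2) in PBS pDCs, YG+ pDCs and Sirpa+ DCs, and was not called (edgeR adjusted p 0.678 to 0.936). Mrpl40 and B3gnt5 were lower, at no more than 25.5 ± 7.43 CPM and 21.7 ± 3.78 CPM (n = 2) in any group. Lamp3, a lysosomal protein of mature dendritic cells, had 7 and 7 counts in PBS pDCs, 1 and 3 in YG+ pDCs, and 0 and 1 in Sirpa+ DCs, too few to pass the filter. Olfr166, Olfr168 and Olfr169 had 1 and 0, 1 and 0, and 4 and 5 counts in PBS pDCs, 1 and 0, 4 and 0, and 2 and 1 in YG+ pDCs, and 0 in both Sirpa+ DC libraries. Their few counts lay in pDC libraries, as those of the members beside them did.

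**Figure D5:**
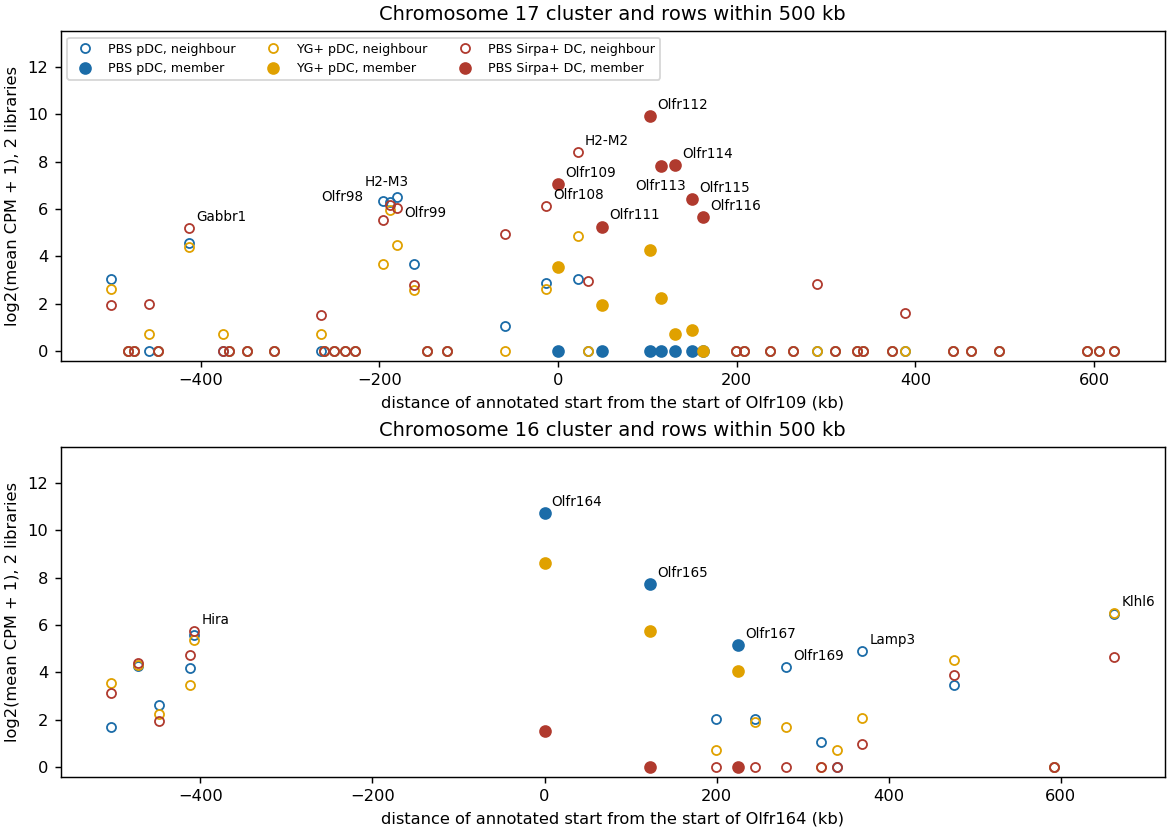
Mean level of each group as log2(mean CPM + 1), over 2 libraries, against the distance in kb of each gene's annotated start from Olfr109 (top) or Olfr164 (bottom), with filled circles for the members, open circles for the other genes, blue for PBS pDCs, yellow for YG+ pDCs and red for PBS Sirpa+ DCs. On chromosome 17 the red points of the members and of H2-M2, at 338 CPM, lie above the blue and yellow ones, while Olfr110 among them reaches 6.83 CPM. On chromosome 16 the blue points of Olfr164, Olfr165 and Olfr167 stand at 1687, 209 and 34.9 CPM. Olfr166 and Olfr168 beside them stand at 3.04 CPM each in blue, and Hira at 40.1 to 52.2 CPM in the 3 groups.

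Among the other 1112 Olfr genes, 939 had no count in any library and 160 had 1 to 10 counts over all 6. Only 4 had at least 30, Olfr98, Olfr99, Olfr108 and Olfr172, and the same 4 passed the filter. The 10 members held 73.0% to 85.0% of all Olfr counts in each library, a share favoured by their choice on counts of the PBS libraries. Olfr172 had 28 and 11 counts in PBS pDCs, 18 and 21 in YG+ pDCs and 3 and 3 in Sirpa+ DCs, and was higher in PBS pDCs than in Sirpa+ DCs by 3.40 ± 0.98 on the log2 scale (edgeR adjusted p 0.0455).

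The partners of olfactory receptors in neurons were mostly at low levels. Of 22 genes of olfactory signal transduction and receptor export, 15 had a count and 9 were tested, of which 1 was lower and 0 higher in PBS pDCs and in YG+ pDCs against Sirpa+ DCs, and 0 were called between the pDC groups. That 1 of 9, or 11.1%, stood beside 11.4% and 7.16% of all genes in these comparisons. The median log2 difference of the 9 was 0.07, -0.38 and -0.02 in these comparisons, against 0.08, 0.04 and 0.08 over all genes. The called gene was Adrbk2, a kinase that phosphorylates activated receptors, at 33.5 ± 21.6 CPM in PBS pDCs, 110 ± 1.45 CPM in YG+ pDCs and 376 ± 4.30 CPM in Sirpa+ DCs (n = 2 each), with edgeR adjusted p of 0.00239 and 0.0308. Of the 8 olfactory neuron markers, which summed to 122 to 572 CPM, Cnga2, Stoml3, Rtp1 and Ano2 were at 0 in all 6 libraries, and Gng13 had 1 count, in YG+ pDC replicate 2. Omp, a marker of mature olfactory neurons, had 1 and 1 counts in PBS pDCs, 4 and 14 in YG+ pDCs and 0 and 2 in Sirpa+ DCs. Most of that sum was Gnal, with 82 and 70 counts in PBS pDCs, 58 and 60 in YG+ pDCs and 52 and 56 in Sirpa+ DCs. Gnal counts thus ran from 52 to 82, and no Gnal difference passed the test (edgeR adjusted p 0.315 to 0.457).

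Of 11 genes tied to the choice of a receptor gene in neurons, 9 had a count and 5 were tested, of which 1 was higher and 0 lower in each pDC group against Sirpa+ DCs, where 11.4% (PBS) and 7.16% (YG+) of all genes were called. The called gene was Lbr, a nuclear envelope receptor that tethers heterochromatin, at 87.2 ± 11.5 CPM in PBS pDCs, 104 ± 6.20 CPM in YG+ pDCs and 11.7 ± 5.14 CPM in Sirpa+ DCs (n = 2 each). Its log2 difference was 2.79 ± 0.53 and 3.01 ± 0.51 (edgeR adjusted p 0.00782 and 0.00688). The median of the 5 was 0.42 and 0.78 in those comparisons and 0.17 in YG+ against PBS pDCs, where 0 were called. Of 4 genes searched for the lambda and surrogate light chains, 2 had a count and 0 were tested, and Vpreb3 had 7 and 0 counts in PBS pDCs, 3 and 0 in Sirpa+ DCs and 0 in YG+ pDCs. Lambda segments themselves were not analysed here.

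The genes whose levels were most like those of the clusters were taken by Pearson's r of log2(CPM + 2) over the 6 libraries, among genes averaging 20 CPM or more. For the chromosome 17 sum they were Ssh1 (r = 0.999), Ccl22 (0.995), Rab11fip1 (0.995), Bcl2a1a (0.994) and Eps8 (0.994), out of 7271 genes. Ccl22, a chemokine of dendritic cells, stood at 134 and 157 CPM in PBS pDCs, 434 and 334 CPM in YG+ pDCs and 1138 and 997 CPM in Sirpa+ DCs. For the chromosome 16 sum they were Grn (0.999), Rac2 (0.997), Sbk1 (0.997), Col15a1 (0.997) and Nme7 (0.996), out of 7274 genes. Nme7 stood at 1466 and 649 CPM in PBS pDCs, 284 and 444 CPM in YG+ pDCs and 16.2 and 30.7 CPM in Sirpa+ DCs. Pearson's r does not compare the size of differences. Ssh1 averaged 30.7, 49.9 and 102 CPM in PBS pDCs, YG+ pDCs and Sirpa+ DCs, against 0, 37.2 and 1722 CPM for the chromosome 17 sum. Grn averaged 1137, 920 and 352 CPM, against 1931, 464 and 1.92 CPM for the chromosome 16 sum. The likenesses are descriptions over 3 groups that share libraries and depth with the clusters.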

How the data were processed

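Each deposited file held raw read counts per gene symbol for 1 library, as the authors deposited them, with no normalization. Per the labels' protocols, 5 ng of TRIzol-extracted RNA per library went into the Ovation SoLo RNA-Seq Mouse kit. Build mm10 and bcl2fastq 2.17 are named in the submitters' processing notes. No source used here gives the aligner, counter, annotation or strand setting. Summary lines that name no gene (97.7% to 99.5% of records) stayed out of library sizes and tests.

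The members and the gene lists were chosen with earlier results of these data known. Counts were filtered with filterByExpr, scaled by TMM (factors 0.924 to 1.09) and fitted over all 6 libraries with edgeR 4.0.16 (quasi-likelihood test, Benjamini-Hochberg, threshold 0.05). The fit was tested on simulated data. Limits for a count of 0 use 3 counts, per library or over a group, and intervals are at 95%. Named neighbours were called in a comparison or reached 20 CPM in a group, at most 10 per cluster; Olfr110, Olfr117 to Olfr120, Olfr166, Olfr168, Olfr169, Gnal, Vpreb3, Tsix, Xist and single marker genes are named beside these, chosen after their values were seen. Another gene of the marker lists is not reported here. Members of a list are named where called. Coordinates and exon lengths come from GENCODE M21, with 21777 of 23420 symbols matched directly and 1247 through RefSeq synonyms, and start windows come from RefSeq GRCm38.p6.

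Alternatives were other size factors, other filters, DESeq2 1.42.0, limma-voom (limma 3.58.1), the 4 libraries compared, the replicate block, each library left out, gene counts without Rn45s, and uniquely placed records as library size, the last chosen after seeing the data. The labels give 1 batch, so no within-batch values exist. Replicates differed beyond counting noise, with a chi-square per degree of freedom of 2.76 to 11.9, so each library counted as 1 sample. The libraries of a group share numbers with other groups, but no label ties the numbers to animals or days.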

Additional observations from a re-analysis of the deposited data

How the results depend on the processing

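The number of genes called between PBS pDCs and Sirpa+ DCs was 931; it was 77 with uniquely placed records as library size (chosen after seeing the data), 580 with the 4 libraries compared, and 214 to 1297 with 1 library left out (316 and 214 without Sirpa+ DC replicate 1 and 2). Between YG+ and PBS pDCs it was 0, but 141 without a filter, 45 by DESeq2 and 0 to 870 with 1 library left out, 870 being without PBS pDC replicate 2, 14 without YG+ pDC replicate 2 and 3 without PBS pDC replicate 1. Between YG+ pDCs and Sirpa+ DCs it was 583, but 894 without a filter, 0 with uniquely placed records, 1480 with the 4 libraries and 69 to 1487 with 1 library left out, each of the 6 moving it by over 1.5 times. Of the neighbours, 2 were called between PBS pDCs and Sirpa+ DCs, but 1 by limma-voom, with uniquely placed records or with the 4 libraries, and 1 to 3 with 1 library left out. Between YG+ and PBS pDCs 0 neighbours were called, but 1 without a filter and 0 to 2 with 1 library left out. Between YG+ pDCs and Sirpa+ DCs 2 were called, but 4 without a filter, 1 by limma-voom, 0 with uniquely placed records, 5 with the 4 libraries and 1 to 6 with 1 library left out. Olfr114 and Olfr115 reversed between YG+ and PBS pDCs under limma-voom, to -0.48 each, both groups holding at most 1 count. Of 147 member differences refitted between YG+ pDCs and Sirpa+ DCs, 120 kept their direction and side of the threshold, 22 lost the call and 5 gained it; between YG+ and PBS pDCs 133 of 141 did, 6 gained a call and 2 reversed. Some refits without a library dropped a member at the filter. With the replicate block the counts of calls were 942, 0 and 635. Deviations of libraries with the same number correlated at -0.12 (YG+ and PBS pDCs), -0.10 (YG+ pDCs and Sirpa+ DCs) and 0.30 (PBS pDCs and Sirpa+ DCs). With 2 libraries a group, these values cannot decide whether the numbers pair the samples. The cause of the shifts between fits was not tested. Where a fit left 1 library in a group, that library was assumed to vary like the others.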
